A study of Rattus norvegicus with 20 samples.

Results

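Txnip and 5 antioxidant enzyme genes were followed in rat heart ventricle: Txnip (ENSRNOG00000021201), Cat (ENSRNOG00000008364), Sod2 (ENSRNOG00000019048), Sod1 (ENSRNOG00000002115), Hmox1 (ENSRNOG00000014117) and Nqo1 (ENSRNOG00000012772). The 6 genes were chosen by ID from the 24059 Ensembl gene IDs of the count table, and no ID was missing. All 6 were among the 14293 genes with enough counts to be tested. The symbols of the 6 IDs came with the list of members, since no table at hand pairs Ensembl IDs with gene names.

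Superoxide formed by respiration is turned into hydrogen peroxide by superoxide dismutases, SOD2 in the mitochondrial matrix and SOD1 mainly in the cytosol. Catalase, the product of Cat, breaks hydrogen peroxide down to water and oxygen, mostly in peroxisomes. HMOX1 degrades heme and NQO1 reduces quinones, and both genes are well-known targets of the oxidant-responsive transcription factor NRF2. TXNIP binds and inhibits thioredoxin and restrains glucose uptake, and Txnip transcription is known to respond to glucose.

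Hearts came from male rats 9 weeks old on a Sprague Dawley background, in 4 groups of 5: wild-type (WT) control, WT diabetic, VegfbKO control and VegfbKO diabetic. VegfbKO rats lack Vegfb throughout the body through an insertion made with zinc-finger nucleases, and WT rats were littermates. Diabetic rats had received 55 mg/kg of streptozotocin (STZ), a toxin of pancreatic beta cells, into a vein and were sampled on day 4 of diabetes; no injection is described for controls. The model is one of short insulin deficiency in males. Vegfb itself could not be matched to an ID, so its loss was not checked here, and the markers of heart tissue could not be looked up either.

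RNA was sequenced with 1 library per rat, and the deposited estimated counts were scaled to library size, as CPM, with the TMM method of edgeR, which corrects for differences in library composition. Total counts per library ranged from 7314287 to 26664479 in WT controls (median 21777484), from 12965611 to 23399247 in WT diabetic hearts (median 21669304), from 18334499 to 24387305 in VegfbKO controls (median 20712821) and from 7220469 to 21935785 in VegfbKO diabetic hearts (median 20168819). WT control replicate 2 and VegfbKO diabetic replicate 1 were the shallowest. Levels are not divided by gene length, so they are compared between groups and not between genes.

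A pair of diabetic libraries stood apart in composition. The most abundant ID took 23.35% of the counts in WT diabetic replicate 2 and 25.46% in VegfbKO diabetic replicate 1, against 8.031% to 13.3% in the other 18 libraries. Their TMM factors, 0.7292 and 0.6935, were also the lowest, the others lying between 0.9349 and 1.17. Results are given with and without this pair where they rest on it.

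Diabetes was accompanied by higher Txnip and Cat in both genotypes, the clearest changes among the 6 genes. A gene was called at an edgeR adjusted p under 0.05 with an absolute log2 fold change above 0.27. In WT hearts 3 of the 6 genes rose with diabetes (Txnip, Cat and Hmox1) and 0 fell, where 13.1% of all tested genes were called, 6.06% higher and 7.07% lower. In VegfbKO hearts 2 rose (Txnip and Cat) and 1 fell (Sod2), where 7.84% of all tested genes were called, 3.63% higher and 4.21% lower. The background share in VegfbKO hearts rests partly on 1 library, since 643 genes were called without VegfbKO diabetic replicate 3 and 1121 with all libraries. The median log2 fold change of the 6 genes was 0.57 in WT and 0.19 in VegfbKO hearts, and that of all tested genes was 0.01 and 0.01. As the 6 genes were chosen with earlier results of these data known, these shares and medians are a description with no test. Much of the gap between the medians of the 6 rests on a few libraries: without WT diabetic replicate 2 the WT median was 0.33, and without the pair of unusual composition the medians were 0.32 and 0.26. Without VegfbKO diabetic replicate 1 the VegfbKO median was 0.28, and without VegfbKO diabetic replicate 2 it was 0.13.

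**Figure D1:**
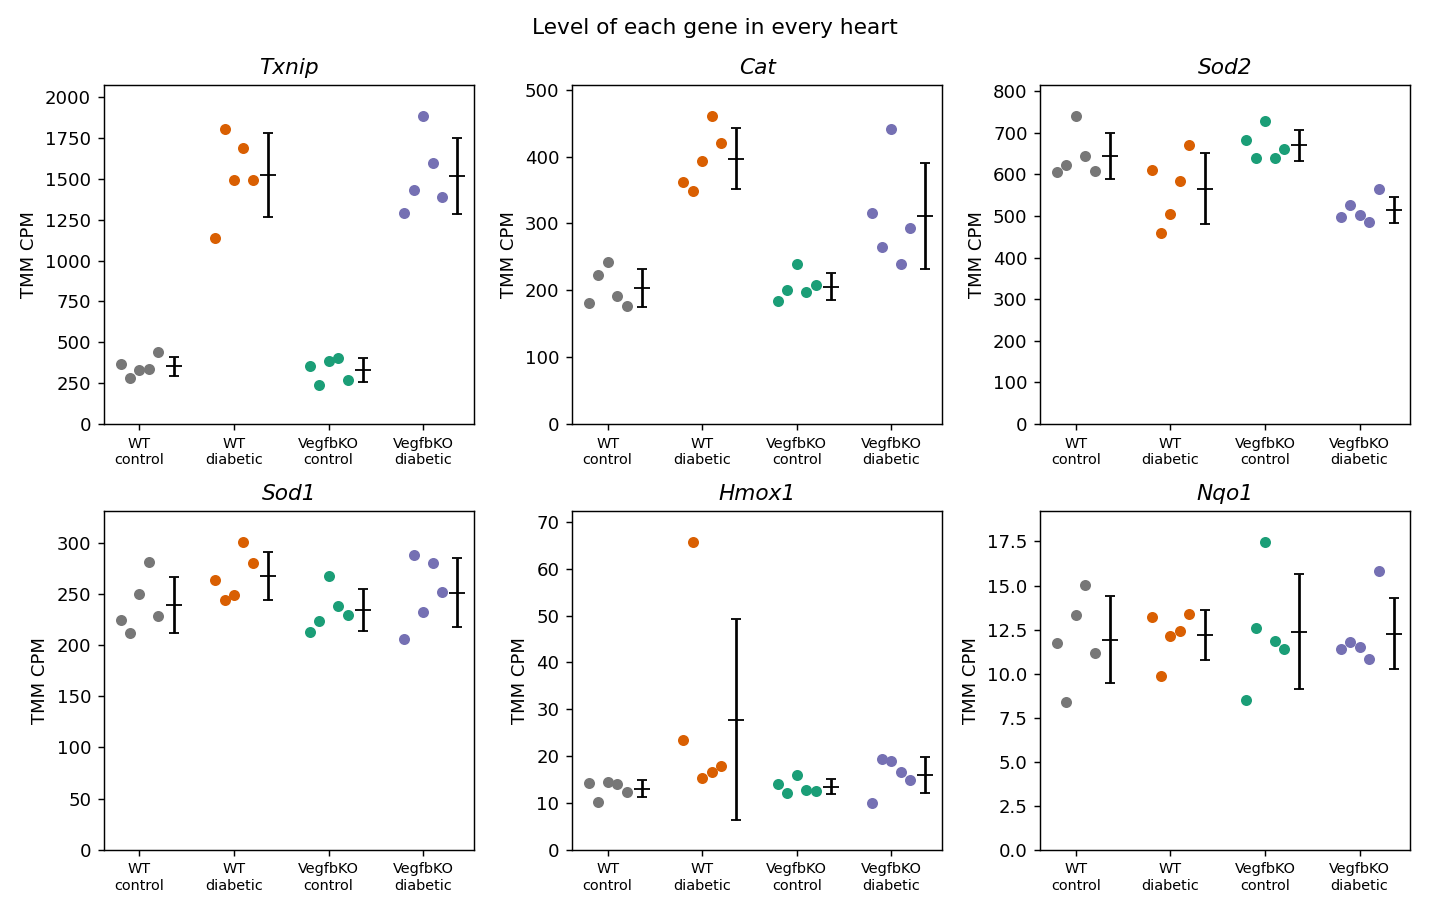
Level of each gene in TMM-scaled CPM (vertical axes, each from 0) in every heart of the 4 groups; points are rats in the order of their replicate numbers and bars are the mean ± SD of 5. All 10 diabetic hearts lie above all 10 control hearts for Txnip, and 1 WT diabetic heart at 65.8 CPM stands far above the rest for Hmox1.

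Txnip, the thioredoxin inhibitor, was measured at 369.7, 279.0, 333, 339 and 440.0 CPM in WT control replicates 1 to 5. In WT diabetic replicates 1 to 5 it stood at 1136, 1808, 1495, 1692 and 1493 CPM. The lowest diabetic heart, replicate 1, was still far above the highest control, so the WT groups did not overlap. VegfbKO controls held 354, 238, 385, 403 and 269 CPM, and VegfbKO diabetic hearts 1294, 1432, 1887, 1595 and 1391 CPM. These groups did not overlap either.

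The mean level of Txnip was 352 ± 59.0 CPM in WT controls and 1525 ± 256 CPM in WT diabetic hearts (SD, n = 5 each). This was a 4.33-fold rise, a log2 fold change of 2.11 with a 95% interval of 1.79 to 2.44 (SE 0.16, edgeR adjusted p = 5.72e-09). In VegfbKO hearts the mean went from 329.7 ± 72.7 to 1519.6 ± 232 CPM (SD, n = 5 each), a 4.61-fold rise with a log2 fold change of 2.20 and a 95% interval of 1.88 to 2.53 (SE 0.16, edgeR adjusted p = 7.78e-09). By size of rise Txnip ranked 36 among the 14293 genes in WT and 16 in VegfbKO hearts, and by p-value it ranked 6 and 2. In order of mean level the groups ran from VegfbKO control through WT control and VegfbKO diabetic to WT diabetic, and only the step between controls and diabetic hearts exceeded the spread. In tissue RNA of this kind, more RNA per cell and more cells that express a gene cannot be told apart.

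Cat, which encodes catalase, also rose in both genotypes. Its promoter window in the RefSeq table (GRCr8, chr3:110329477-110329776, minus strand, 250 bases before to 50 after the start site) is shown because Cat is the most changed member for which that table has a window. The table has windows for 4 of the 6 genes: Cat, Sod2, Sod1 and Nqo1. Written 5′ to 3′ in lower case, the Cat window has a GC content of 59.3% and holds no match to any of the 4 motifs searched on both strands. These were the antioxidant response element core TGACNNNGC, the E-box CACGTG, the FoxO site TGTTTAC and a pair of CACGNG half-sites 5 bases apart. The pair was searched only with both half-sites in the same direction, so it does not cover every form of the carbohydrate response element. Of 33469 RefSeq windows of the same kind, 12.1%, 6.42%, 3.78% and 0.0359% hold the 4 motifs, in that order. E-box letters also fit a CACGNG half-site. A missing match says only that these letters are not in the window.
Cat: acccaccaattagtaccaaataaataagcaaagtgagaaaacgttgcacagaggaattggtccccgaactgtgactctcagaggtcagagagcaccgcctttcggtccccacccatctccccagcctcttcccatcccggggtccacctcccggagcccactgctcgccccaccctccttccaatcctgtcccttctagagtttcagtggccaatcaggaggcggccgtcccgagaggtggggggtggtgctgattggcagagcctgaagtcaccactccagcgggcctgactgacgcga

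WT control hearts held 181, 224, 242, 192 and 176 CPM of Cat in replicates 1 to 5. WT diabetic hearts held 362, 348, 393, 461 and 420.1 CPM. The WT groups were well separated. VegfbKO control hearts held 183, 199.8, 239, 197 and 208 CPM. VegfbKO diabetic hearts held 316, 265, 442, 239 and 293 CPM. The VegfbKO groups were separated narrowly, with diabetic replicate 4 just above control replicate 3, while diabetic replicate 3 reached the range of the WT diabetic hearts.

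In WT hearts mean Cat went from 203 ± 28.8 to 397 ± 45.5 CPM (SD, n = 5 each), a 1.96-fold rise with a log2 fold change of 0.97 and a 95% interval of 0.70 to 1.24 (SE 0.13, edgeR adjusted p = 2.26e-05). In VegfbKO hearts it went from 205 ± 20.7 to 311 ± 78.6 CPM (SD, n = 5 each), a 1.51-fold rise with a log2 fold change of 0.60 and a 95% interval of 0.33 to 0.87 (SE 0.13, edgeR adjusted p = 0.00529). Among diabetic hearts the level was thus lower on average in VegfbKO than in WT, with overlap. The difference of the 2 responses, the interaction of genotype and diabetes, was -0.37 on the log2 scale with a 95% interval of -0.75 to 0.01 and did not pass the test (edgeR unadjusted p = 0.0573, adjusted p = 1). The order of means was WT control, VegfbKO control, VegfbKO diabetic and WT diabetic, and the ranges of the controls overlapped, as did those of the diabetic groups.

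Sod2, the mitochondrial superoxide dismutase, was the member that fell. Its RefSeq promoter window (GRCr8, chr1:50050119-50050418, minus strand) is shown as that of the changed gene that holds a motif match. It has a GC content of 72% and 1 match to the antioxidant response element core, TGACCCTGC on the strand opposite to the gene, which begins 35 bases before the start site. The capitals mark these bases as they read on the strand of the gene. The match describes the letters of the window, and 12.1% of all windows hold this core; the windows of Sod1 (GC content 61.3%) and Nqo1 (56.3%) hold none of the 4 motifs.
Sod2: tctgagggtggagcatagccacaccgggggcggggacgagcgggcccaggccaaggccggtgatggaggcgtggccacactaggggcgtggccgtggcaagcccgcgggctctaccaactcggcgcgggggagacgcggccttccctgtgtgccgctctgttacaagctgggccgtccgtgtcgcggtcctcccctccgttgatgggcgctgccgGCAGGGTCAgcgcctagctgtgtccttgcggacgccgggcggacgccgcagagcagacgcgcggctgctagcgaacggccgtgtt

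In WT hearts Sod2 stood at 605, 623, 741, 643 and 608 CPM in control replicates 1 to 5. WT diabetic hearts held 610.2, 459, 505, 583 and 672 CPM, so that replicates 1 and 5 lay within the control range and the groups overlapped. VegfbKO control hearts held 682, 639, 728, 639 and 660.1 CPM. VegfbKO diabetic hearts held 496, 526, 503, 486 and 565 CPM. All 5 lay below every VegfbKO control and also below every WT control.

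Mean Sod2 in VegfbKO hearts went from 669.6 ± 37.0 to 515 ± 31.2 CPM (SD, n = 5 each), a fall to 0.77 of the control level with a log2 fold change of -0.38 and a 95% interval of -0.56 to -0.19 (SE 0.09, edgeR adjusted p = 0.00965). In WT hearts the means were 644 ± 56.1 and 566 ± 84.4 CPM (SD, n = 5 each), with a log2 fold change of -0.19 that did not pass the test (95% interval -0.37 to -0.00046, edgeR adjusted p = 0.184). Without WT diabetic replicate 2, which had the lowest Sod2, it was -0.12 (edgeR adjusted p = 0.413, with 0.067 to 0.413 over all libraries left out in turn). Sod2 was therefore called in 1 genotype and not in the other, but the interaction was -0.19 with a 95% interval of -0.45 to 0.07 (edgeR adjusted p = 1), and the genotypes were not shown to respond differently. With each library left out the interaction of Sod2 ranged from -0.26, without WT diabetic replicate 2, to -0.12, without WT diabetic replicate 5. The groups ranked from VegfbKO diabetic, the lowest, through WT diabetic and WT control to VegfbKO control, and neighbours overlapped throughout.

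Sod1, the cytosolic superoxide dismutase, was not called in any comparison. Its libraries ranged from 211 to 281 CPM in WT controls, from 245 to 301 in WT diabetic, from 212 to 268 in VegfbKO control and from 206 to 288 in VegfbKO diabetic hearts. The 4 ranges overlapped. Means were 239 ± 27.2, 268 ± 23.4, 234 ± 20.9 and 251 ± 34.0 CPM in the same order (SD, n = 5 each). The log2 fold change with diabetes was 0.16 in WT (95% interval -0.04 to 0.36, edgeR adjusted p = 0.294) and 0.10 in VegfbKO hearts (95% interval -0.10 to 0.30, edgeR adjusted p = 0.583), and neither passed the test. The VegfbKO value was 0.17 without diabetic replicate 1 and 0.05 without diabetic replicate 2.

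Hmox1, the inducible heme-degrading enzyme, was higher in WT diabetic hearts, but by an amount that 1 heart sets. WT controls held 14.2, 10.2, 14.5, 14.0 and 12.3 CPM in replicates 1 to 5. WT diabetic hearts held 23.4, 65.8, 15.2, 16.6 and 18.0 CPM. Every WT diabetic heart was above every WT control, 3 of them by little, and replicate 2 was far above all. VegfbKO controls held 13.9, 12.1, 16.1, 12.7 and 12.6 CPM. VegfbKO diabetic hearts held 9.99, 19.5, 18.9, 16.6 and 14.9 CPM. These groups overlapped, and diabetic replicate 1, the shallowest library with 50 counts of Hmox1, was the lowest of all 20.

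Mean Hmox1 was 13.1 ± 1.79 CPM in WT controls and 27.8 ± 21.5 CPM in WT diabetic hearts (SD, n = 5 each), a 2.08-fold rise with a log2 fold change of 1.06 and a 95% interval of 0.37 to 1.75 (SE 0.33, edgeR adjusted p = 0.0397). Without WT diabetic replicate 2 the log2 fold change was 0.46, with an edgeR adjusted p of 0.0405. Without that library and VegfbKO diabetic replicate 1 together it was 0.46, with an adjusted p of 0.0173. The call was lost when WT control replicate 1, 2, 3, 4 or 5 was left out (edgeR adjusted p = 0.0671, 0.0849, 0.0563, 0.0676 and 0.085) and without WT diabetic replicate 1 (0.0531). Over all 20 libraries left out in turn the adjusted p ranged from 0.0147 to 0.085. The call was also lost with no filter on low counts (edgeR adjusted p = 0.0631) and with only the 10 WT libraries (0.158), while DESeq2 gave 0.00973. The heart that sets the size of this change is also one of the pair with an unusual composition, at 23.35% of counts in 1 ID; the other, VegfbKO diabetic replicate 1, had the lowest Hmox1. Their part in the result beyond these values was not tested.

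In VegfbKO hearts mean Hmox1 was 13.5 ± 1.59 CPM in controls and 16.0 ± 3.81 CPM in diabetic hearts (SD, n = 5 each), and the log2 fold change of 0.28 did not pass the test (95% interval -0.42 to 0.98, edgeR adjusted p = 0.687). This fold change was 0.37 without the pair of unusual composition and again did not pass (edgeR adjusted p = 0.0728). The interaction was -0.78 with a 95% interval of -1.76 to 0.20 (edgeR adjusted p = 1) and -0.18 without WT diabetic replicate 2. Without the pair of unusual composition it was -0.091. The spread between rats, as edgeR's coefficient of biological variation over all 4 groups, was 34.8% for Hmox1, against 13.1% for genes of similar level. For the other 5 genes it lay between 11.2% and 17.3%. Within the groups the spread of Hmox1 was unequal. Its SD was 13.7% of the mean CPM in WT control, 77.4% in WT diabetic, 11.8% in VegfbKO control and 23.9% in VegfbKO diabetic hearts. The order of means was WT control, VegfbKO control, VegfbKO diabetic and WT diabetic, and the neighbours overlapped.

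**Figure D2:**
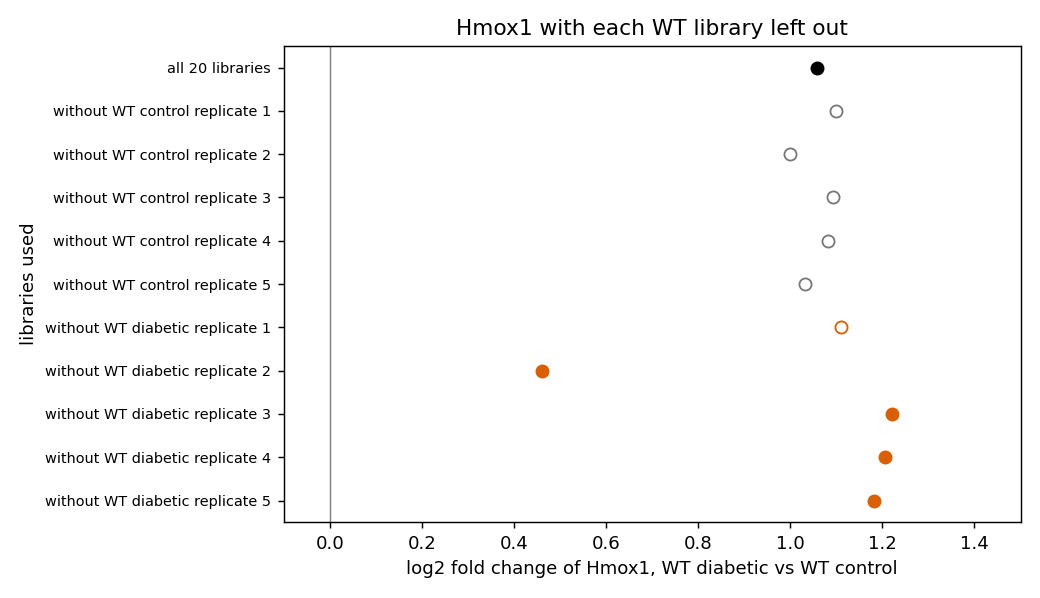
Log2 fold change of Hmox1 between WT diabetic and WT control hearts (horizontal axis) with all 20 libraries and with each WT library left out (vertical axis). Filled points have an edgeR adjusted p under 0.05 and open points do not. The value is 1.06 with all libraries and 0.46 without WT diabetic replicate 2.

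Nqo1, a quinone reductase, showed no detectable change. It ranged from 8.38 to 15.0 CPM in WT control, from 9.84 to 13.4 in WT diabetic, from 8.49 to 17.5 in VegfbKO control and from 10.8 to 15.8 in VegfbKO diabetic hearts. Means were 11.9 ± 2.50, 12.2 ± 1.42, 12.4 ± 3.26 and 12.3 ± 2.01 CPM (SD, n = 5 each), so close that their order carries no information. The 95% interval of the log2 fold change was -0.32 to 0.34 in WT hearts (edgeR adjusted p = 0.978) and -0.33 to 0.32 in VegfbKO hearts (edgeR adjusted p = 0.992). Its counts ran from 57 to 426 per library, and its coefficient of biological variation was 16.9%. Of the pair of NRF2 targets, Hmox1 was called in WT hearts and Nqo1 was not, and the difference between them was not tested.

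Averaged over both genotypes, 3 genes rose with diabetes and 1 fell, where 16.2% of all tested genes were called, 7.91% higher and 8.3% lower. The log2 fold changes were 2.16 for Txnip, 0.78 for Cat, 0.67 for Hmox1 and -0.28 for Sod2 (edgeR adjusted p = 5.49e-12, 1.52e-06, 0.0463 and 0.00207). The calls of Hmox1 and Sod2 lay close to a threshold. Hmox1 kept its call only when the library left out was WT diabetic replicate 2, 3, 4 or 5 or VegfbKO diabetic replicate 1, with edgeR adjusted p from 0.0103 to 0.0833 over the 20 fits, and without WT diabetic replicate 2 its log2 fold change was 0.37. With no filter on low counts its call was lost (edgeR adjusted p = 0.0721). Sod2 passed the adjusted p in all 20 fits but missed the fold threshold, with log2 fold changes of -0.255, -0.249, -0.258, -0.266, -0.266 and -0.266, without WT control replicate 3, WT diabetic replicate 2, WT diabetic replicate 3, VegfbKO control replicate 3, VegfbKO diabetic replicate 1 and VegfbKO diabetic replicate 4. It also missed this threshold, at -0.247, without the pair of unusual composition.

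Between genotypes none of the 6 genes was called by edgeR. In control hearts 0.028% of all tested genes were called and 0 of the 6 genes had an unadjusted p under 0.05, against 527 of the 14293 tested genes; their log2 fold changes for VegfbKO against WT lay between -0.10 and 0.06. In diabetic hearts 0.042% of all tested genes were called, which is 6 genes, against 65 with DESeq2 and 181 by edgeR without WT diabetic replicate 3. Here 2 of the 6 genes had an unadjusted p under 0.05, as did 1285 of the 14293 tested genes. These were Cat, with a log2 fold change of -0.35 (95% interval -0.62 to -0.08, edgeR unadjusted p = 0.013, adjusted p = 0.407), and Hmox1, with -0.75 (95% interval -1.44 to -0.06, edgeR unadjusted p = 0.0349, adjusted p = 0.523). Without WT diabetic replicate 2 the value of Hmox1 was -0.15, and without the pair of unusual composition it was -0.058. For Txnip the diabetic hearts of the genotypes differed by 0.00 on the log2 scale, with a 95% interval of -0.31 to 0.30. The interaction called 0% of all tested genes and 0 of the 6, also with DESeq2, while 600 of 14293 genes and 0 of the 6 had an edgeR unadjusted p under 0.05.

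**Figure D3:**
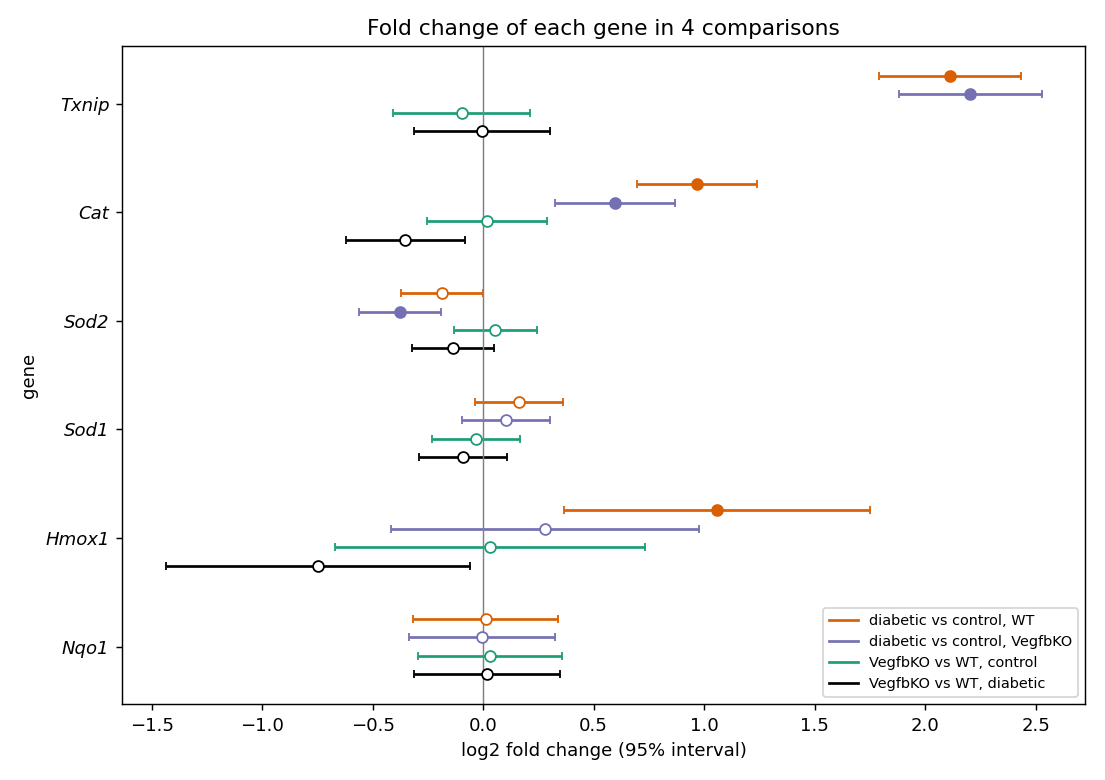
Log2 fold change (horizontal axis) of each of the 6 genes with its 95% interval in 4 comparisons. Filled points were called by edgeR and open points were not. The intervals of Txnip and Cat with diabetes lie above 0 in both genotypes, and that of Hmox1 is the widest.

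**Figure D4:**
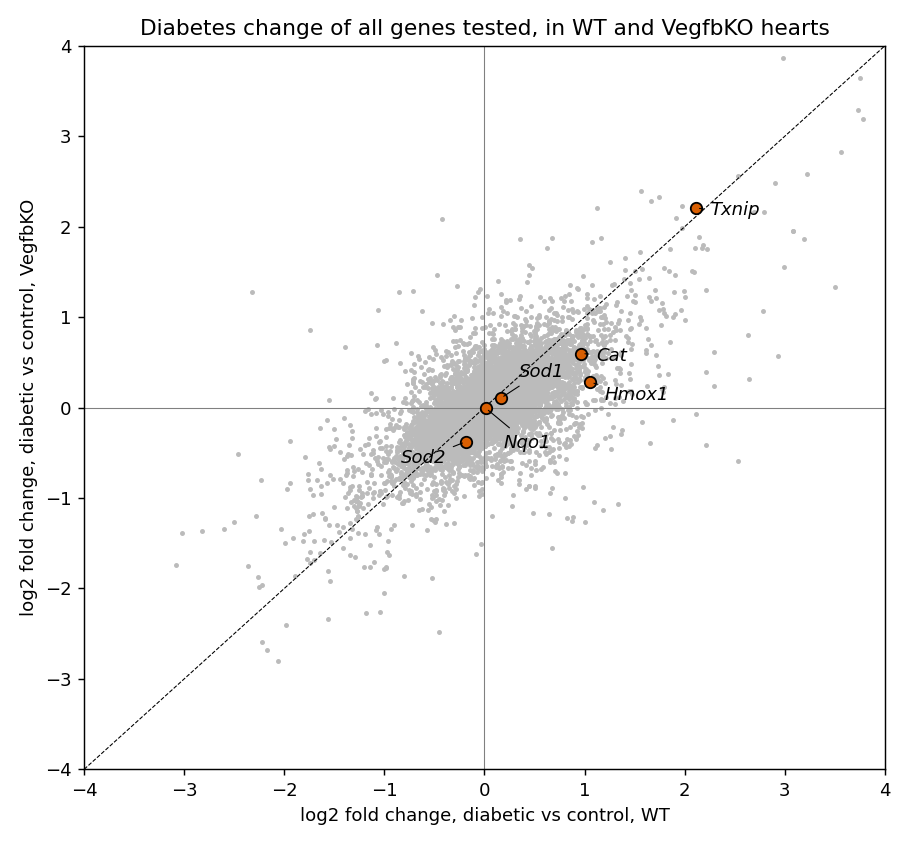
Log2 fold change with diabetes in WT (horizontal axis) and in VegfbKO hearts (vertical axis) for all tested genes (grey) and the 6 genes (orange); 6 genes beyond 4 on either axis are not shown. The dashed line marks equal values. Txnip lies near it at 2.11 and 2.20, and Cat, Hmox1 and Sod2 lie below it. Sod1 lies slightly below it, and Nqo1 lies at the centre.

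Since the TMM factors of 2 libraries stood apart, the counts of Cat and of Txnip were also divided by the count of Sod2 in the same library, a ratio that needs no scaling. These ratios were chosen after the values were seen, so they are a description with no test, and they are compared between groups only. Sod2 itself fell in VegfbKO hearts, and the ratio holds that change too. The Cat to Sod2 ratio was 0.299, 0.359, 0.327, 0.299 and 0.290 in WT controls and 0.593, 0.757, 0.778, 0.790 and 0.626 in WT diabetic hearts. In VegfbKO hearts it was 0.269, 0.312, 0.328, 0.309 and 0.315 in controls and 0.637, 0.504, 0.877, 0.492 and 0.518 with diabetes. Every diabetic heart had a higher ratio than every control, the pair with unusual composition included.

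The Cat to Sod2 ratio was 2.24-fold higher with diabetes in WT and 1.93-fold higher in VegfbKO hearts, from geometric means. Among diabetic hearts the mean ratio was 0.606 ± 0.163 in VegfbKO and 0.709 ± 0.0922 in WT (SD, n = 5 each), with overlap. The Txnip to Sod2 ratio ranged from 0.448 to 0.723 in WT control, from 1.86 to 3.94 in WT diabetic, from 0.372 to 0.631 in VegfbKO control and from 2.46 to 3.75 in VegfbKO diabetic hearts. It was 4.95-fold higher with diabetes in WT and 6.06-fold higher in VegfbKO hearts, without overlap.

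**Figure D5:**
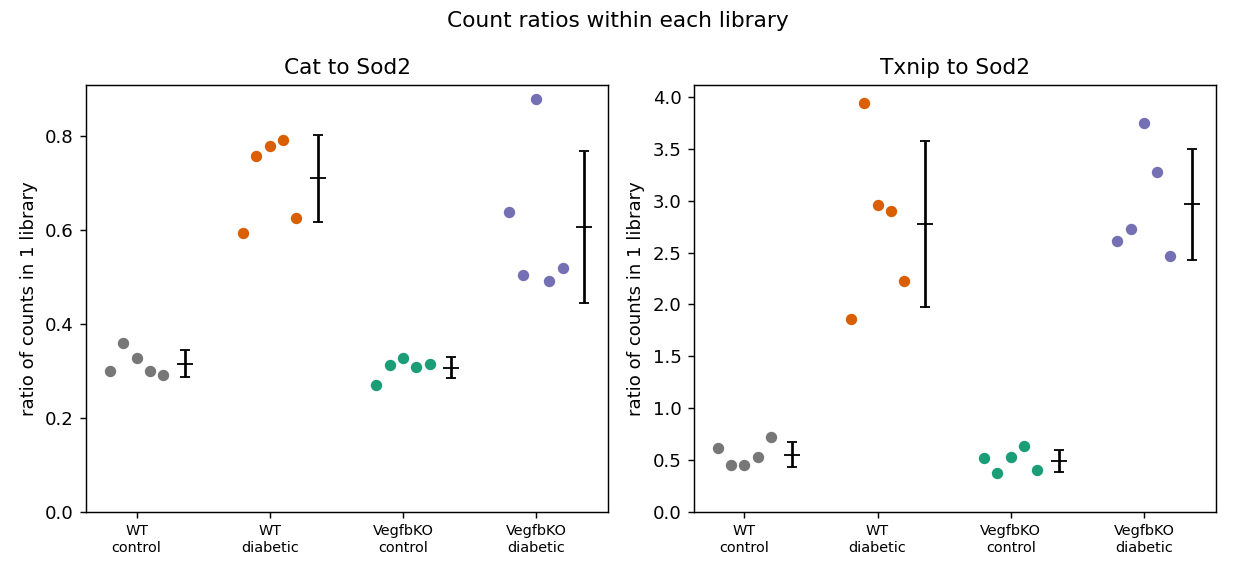
Ratio of the count of Cat (left) or Txnip (right) to that of Sod2 in the same library (vertical axes, from 0) in the 4 groups. Points are rats in the order of their replicate numbers and bars are the mean ± SD of 5. In both panels the diabetic hearts of each genotype lie above its controls, as for Cat to Sod2 with at most 0.359 in controls and at least 0.492 in diabetic hearts.

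Of all other tested genes, ENSRNOG00000019120 had the pattern most like that of Txnip, with a Pearson r of 0.978 between log2 CPM values over 20 libraries. Its level was 8.18 ± 1.27 CPM in WT control, 109.7 ± 38.5 in WT diabetic, 8.54 ± 0.714 in VegfbKO control and 107 ± 57.0 CPM in VegfbKO diabetic hearts (SD, n = 5 each). Most of this likeness was the shared difference between diabetic and control hearts, since r was 0.534 for deviations from the group means. ENSRNOG00000064385 was most like Hmox1, with r of 0.841 and 0.758 for the deviations, and had 115 ± 11.3, 148 ± 29.4, 110.3 ± 3.33 and 128 ± 18.9 CPM in the same order of groups (SD, n = 5 each). It no longer ranked first without the pair of unusual libraries. ENSRNOG00000009761, named after its values were seen, was most like Sod2, with r of 0.952 and 0.889 for the deviations. Its log2 fold change with diabetes over both genotypes was -0.37, given with no test because the ID was chosen for its likeness to Sod2. These values describe the 20 libraries, which differ in group and depth.

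Among the members, the 2 that rose in both genotypes were closely related across groups and little within them. Txnip and Cat had a Pearson r of 0.835 over the 20 libraries, but 0.0841 for deviations from the group means. For the deviations it was 0.181 without the pair of unusual libraries. The pairs with the closest deviations were Sod1 and Nqo1 at 0.589 and Sod2 and Nqo1 at 0.528. None of these 3 genes was called in WT hearts, while Sod2 was called in VegfbKO hearts. For Sod2 and Hmox1 the r of the deviations was -0.327, and it was 0.419 without the pair of unusual libraries, so its sign rests on them.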

How the data were processed

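RNA of 20 rat ventricles was sequenced, and samples were grouped by their labels. For each Ensembl gene the authors deposited estimated counts, made by transcript-level quantification against mRatBN7.2; the submitters' notes name kallisto, edgeR and DESeq2 without their roles. Estimated counts were rounded to whole numbers. In R 4.3.3, edgeR 4.0.16 fitted a quasi-likelihood model with robust estimation to all 20 libraries with 4 group means, after filterByExpr (14293 genes) and TMM scaling; p-values were Benjamini-Hochberg adjusted over all tested IDs. The interaction was called on adjusted p alone. Log2 CPM used a prior count of 2. Libraries held 7220469 to 26664479 counts, and the spread between rats enters every standard error. Count ratios are descriptions. The code was tested on simulated data. No pair of libraries within a group was a duplicate.

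Alternatives were DESeq2 1.42.0, DESeq2 size factors, upper quartile scaling, no filter on low counts, only the 10 libraries compared, a replicate term, and each library, or the pair of unusual composition, left out. Members and lists were chosen with earlier results of these data known. Genes named are the 6 members and, by rule, the IDs most like Txnip and Hmox1; the ID most like Sod2 was added after its values were seen. Planned gene lists and cell type markers were not run, because 0 of 47357 RefSeq genes carry an Ensembl ID. Promoters are from RefSeq (GRCr8). Figures were drawn with matplotlib 3.10.9.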

Additional observations from a re-analysis of the deposited data

Results flagged for a closer look

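Of 24 sets of 5 CPM values, 3 held a value far from the others of its group, where chance gives about 1.2. Hmox1 was 65.8 CPM in WT diabetic replicate 2, against 23.4 CPM in the next highest heart of that group. Sod2 was 741 CPM in WT control replicate 3, against 643 CPM in the next. Nqo1 was 15.8 CPM in VegfbKO diabetic replicate 5, against 11.8 CPM in the next.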

How the results depend on the processing

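Txnip and Cat kept their direction and call in both genotypes under every alternative, with log2 fold changes of 2.04 to 2.21 and 0.92 to 1.04 in WT and 2.11 to 2.29 and 0.44 to 0.68 in VegfbKO hearts with each library left out, and Sod2 kept its call in VegfbKO hearts (-0.41 to -0.35). With each library of the comparison left out, the log2 difference with diabetes ranged from 1.12 to 1.23 in WT and 0.81 to 1.01 in VegfbKO hearts for the Cat to Sod2 ratio, and from 2.17 to 2.44 and 2.51 to 2.70 for Txnip to Sod2. Replicate numbers showed no sign of pairing, and the labels do not say whether they mark a litter or batch. Deviations of same-numbered samples had r from -0.257 to 0.264 over 30 pairs (median 0.0374). Over 120 pairs with other numbers r ran from -0.325 to 0.458 (median -0.0167). With the replicate block, Hmox1 gave 0.90 in WT (edgeR adjusted p = 0.0832) and 0.57 over both genotypes (0.09), both short of the call, and no other call of a member changed. It called 1785 genes with diabetes in WT and 1048 in VegfbKO hearts, against 1876 and 1121.

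For Hmox1 in WT, the log2 fold change was 1.04 with no filter and 1.06 with only the 10 libraries, both not called, and 0.46 to 1.22 with each library left out. Over both genotypes Hmox1 gave 0.66 with no filter, not called, and 0.37 to 0.75 with each library left out. Sod2 over both genotypes gave -0.25 without the pair of unusual composition, short of the fold threshold, and -0.32 to -0.25 with each library left out. The number of members called over both genotypes ranged from 2 to 4 with each library left out. More genes or fewer samples enter these fits, and other causes were not tested.

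The number of genes called in VegfbKO hearts ranged from 643 to 1244 with each library left out. Between diabetic hearts of the genotypes, 6 genes were called, 65 with DESeq2, 3 with only the 10 libraries and 2 to 181 with each library left out. The cause was not tested.

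Values near 0, none of them called, changed sign. Nqo1 with diabetes in VegfbKO hearts gave 0.00094 with upper quartile scaling and 0.0073 without the pair, and over both genotypes -0.0041 with no filter. Between diabetic hearts without the pair, Txnip gave 0.12 and Nqo1 -0.029. With each library left out, Nqo1 ranged from -0.072 to 0.11 in WT, from -0.12 to 0.15 in VegfbKO hearts, from -0.050 to 0.081 over both, from -0.11 to 0.056 between diabetic hearts and from -0.14 to 0.14 for the interaction. Txnip ranged from -0.094 to 0.064 between diabetic hearts and from -0.0061 to 0.17 for the interaction, and Sod1 from -0.12 to 0.00068 for the interaction. Between controls, the ranges were -0.18 to 0.0016 for Txnip, -0.042 to 0.090 for Cat, -0.083 to 0.034 for Sod1, -0.039 to 0.068 for Hmox1 and -0.12 to 0.14 for Nqo1.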
